A study of Mus musculus with 10 samples.

Results

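The Rab genes encode the largest family of small GTPases in the endomembrane system. They were taken from 2 mouse RNA sequencing count tables as every protein-coding gene whose symbol is Rab followed by digits and an optional final letter, which gave 59 of the 55414 genes listed (21876 of them protein-coding). Regulators and effectors such as the Rab11 family-interacting proteins were kept apart. The study compared macrophages that had taken up apoptotic cells, a process called efferocytosis (Eff+), with macrophages that had not (Eff-), sorted by flow cytometry. In the wound model, macrophages came from skin wounds 3 days after wounding of LysMCreER/mTmG mice that had received tamoxifen for 6 days, with 3 Eff+ and 3 Eff- libraries. Both wound groups carry the CreER, driven from the lysozyme M locus and so active in neutrophils as well as macrophages, and the membrane reporter that changes from tdTomato to GFP after recombination. The labels do not say which signal marked a wound cell as Eff+. In the culture model, Wild Type bone marrow cells were grown with GM-CSF for 7 days and then given apoptotic fibroblasts for 12 h, with 2 Eff+ and 2 Eff- libraries. All 4 culture libraries carry the apoptotic fibroblast label, but the Eff- column names hold the letters NOAC, so whether those cells had met apoptotic cells is unclear. A GM-CSF culture can hold dendritic cells beside macrophages.

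A Rab protein is a membrane switch. Guanine nucleotide exchange factors load it with GTP on one compartment, it then recruits effectors that tether, move or fuse vesicles, and GTPase-activating proteins turn it off so that a GDP dissociation inhibitor can extract it from the membrane. An engulfed apoptotic corpse passes from a phagosome marked by Rab5 to one marked by Rab7, which fuses with lysosomes, while Rab4, Rab11 and Rab35 return receptors to the surface and Rab3, Rab8 and Rab27 serve secretion. Transcript levels do not show how much of a Rab protein is in its GTP-bound form.

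Some libraries stood apart. The wound libraries numbered 2 had 159484 (Eff+) and 345046 (Eff-) counts of Lyz2, the lysozyme M gene, against 160 to 413 in the other 4 wound libraries. The culture libraries numbered 1 had counts in 35649 (Eff+) and 44836 (Eff-) genes, against 19649 and 18171 for those numbered 2. The 10 macrophage markers, each with counts in every library, took 0.653 to 0.899% of counts in wound Eff- libraries and 0.284 to 0.375% in wound Eff+ libraries. The 12 neutrophil markers moved the opposite way, with 0.406 to 0.665% in Eff- and 2.18 to 2.46% in Eff+ libraries, and this stands beside every wound difference given here. In culture Eff- library 1 the macrophage markers took 0.238% of counts and the 8 dendritic cell markers 0.0611%, against 0.00150 to 0.0164% for the dendritic markers in the other 3 culture libraries. Total counts were 39735437 to 57308823 per wound library and 17622740 to 27261880 per culture library. The Rab genes together took 0.572 to 0.605% of counts in wound Eff- libraries and 0.612 to 0.671% in wound Eff+ libraries.

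The wound comparison asked which Rab transcripts differ between macrophages that did and did not engulf apoptotic cells. Late phagosome and lysosome Rabs gave most of the differences: Rab7, Rab9, Rab20 and Rab32 were each about 2-fold higher in Eff+ cells, whereas Rab7b was lower. The secretory genes Rab8b and Rab44 and the Golgi gene Rab6a also rose. No early endosome or recycling Rab was called, but only 6 and 7 were tested. Of the 59 genes, 50 had enough counts to be tested, and 7 rose and 1 fell at an adjusted p under 0.05 (edgeR), which is 16% of the tested Rabs. The same test called 11.2% of all 14908 tested genes, 7.39% higher and 3.79% lower in Eff+, so the share of Rabs called was somewhat above that of all genes and no test of that excess was made. The groups did not overlap for 13 Rabs that were higher and 9 that were lower in Eff+, which is 44% of those tested against 36.8% of all genes. The median log2 fold change of the 50 Rabs was 0.18, against -0.03 for all tested genes.

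The role classes were set with earlier results of these data known. By role, the early endosome Rabs had 0 of 6 called and a median log2 fold change of 0.26. Of the late phagosome and lysosome class, 4 of 10 tested genes rose and 1 fell, with a median of 0.34. The recycling class had 0 of 7 called and a median of 0.12. The same test called 11.2% of all genes and found 19% of simulated 2-fold changes. In so few genes, 0 calls therefore do not set a class apart. The secretory class had the highest median, 0.84, with 2 of 10 called, both higher. The endoplasmic reticulum (ER) and Golgi class had 1 of 12 called and a median of 0.07, and the less studied Rabs had 0 of 5 called and a median of -0.04. At an unadjusted p under 0.05 edgeR gave 1 early endosome, 1 recycling and 0 less studied genes. DESeq2 called 1 early endosome gene (Rab5b), 1 recycling gene (Rab12) and 0 less studied genes, and limma-voom 0, 1 (Rab12) and 0. Over all classes DESeq2 called 10 Rabs higher and 3 lower, and limma-voom 8 and 2. Of all genes they called 21.1% and 13.2%, so larger Rab counts went with more calls everywhere. With library totals as the only scaling, the median of all genes moved to -0.42, a shift of -0.39, and 5 Rabs were called higher and 10 lower. That run called 22.6% of all genes. Under that scaling the class medians turned to -0.14 (early endosome), -0.05 (late phagosome and lysosome), -0.28 (recycling) and -0.32 (ER and Golgi), whereas the secretory median stayed positive at 0.44. The sign of 11 of the 50 genes changed with it, but that of none of the 8 called genes. Leaving out Eff+ library 2, one of the pair with high Lyz2, ended every call among all genes, with a smallest adjusted p for a Rab of 0.065. The fold changes of the 8 genes kept their sign and had sizes of, for example, 1.05 against 1.20 for Rab20, 0.93 against 1.00 for Rab7 and 2.26 against 2.32 for Rab44 on the log2 scale, while that of Rab32 was 0.77 against 1.05. Without Eff- library 1, 2 and 3 the numbers of Rabs called were 2, 1 and 6, and without Eff+ library 1 and 3 they were 8 and 5. Of all genes, these runs called 2.79, 1.18, 5.61, 8.53 and 5.23%. The late class median, which includes 4 genes with at most 284 counts in any wound library, was 0.74 without Eff+ library 1 and -0.20 without Eff+ library 3.

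**Figure D1:**
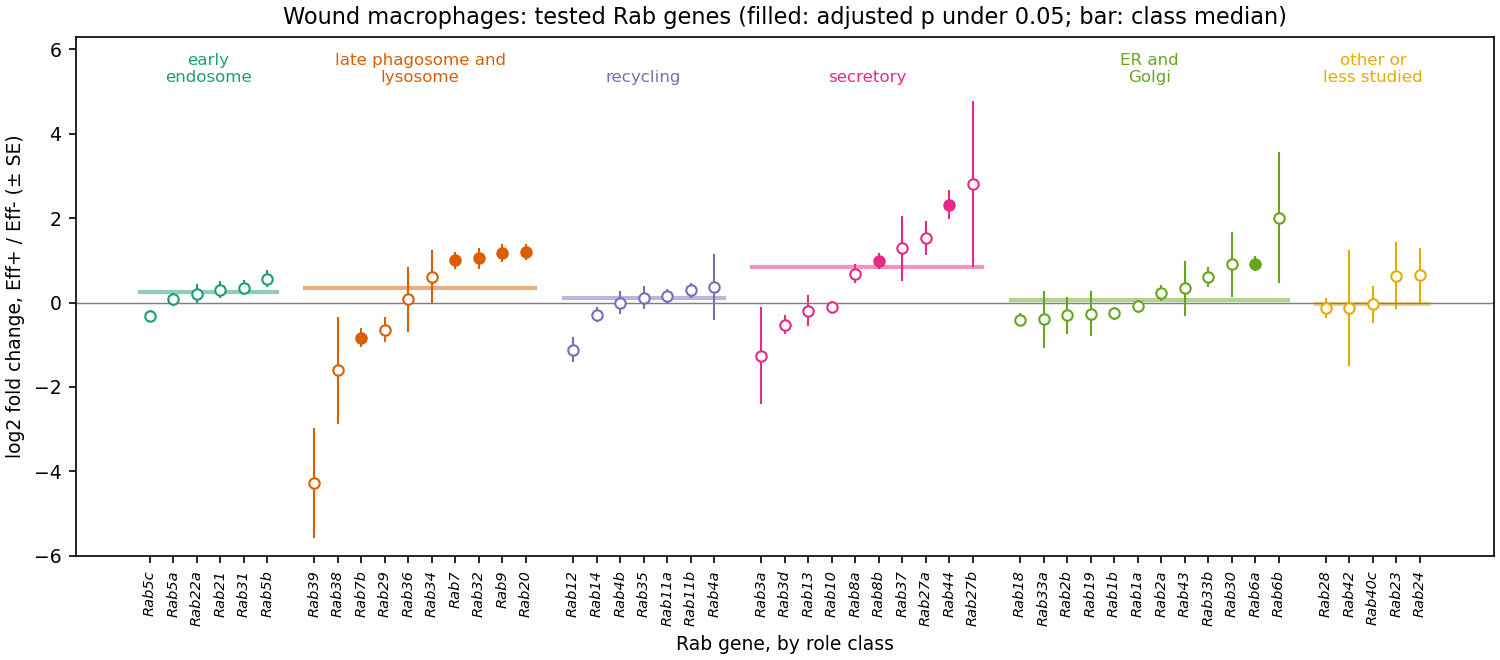
Log2 fold change of wound Eff+ over Eff- (vertical axis, points with bars of 1 standard error) for the 50 tested Rab genes, ordered within 6 role classes along the horizontal axis, with filled points at an adjusted p under 0.05 and a horizontal bar at each class median. The 4 filled points near 1 in the late phagosome and lysosome class, Rab7, Rab32, Rab9 and Rab20, contrast with Rab7b below 0. None of the 6 early endosome or 7 recycling points is filled.

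Rab7 (ENSMUSG00000079477, chromosome 6, 87976088 to 88022252, GRCm39) encodes the GTPase that defines late endosomes and drives phagosome fusion with lysosomes. Its level, as RPKM (reads scaled to library size and gene length), was 516, 547 and 436 in Eff+ libraries 1, 2 and 3 and 276, 207 and 265 in the corresponding Eff- libraries. The groups did not overlap, and Rab7 rose 2.00-fold (log2 fold change 1.00 ± 0.19 SE, adjusted p = 0.022). It was the most abundant Rab transcript per length in both wound groups, at 499 ± 57.4 RPKM in Eff+ and 249 ± 37.1 in Eff- (SD, n = 3). Rab20 (ENSMUSG00000031504, chromosome 8, 11503518 to 11528710), which acts on macropinosome and phagosome maturation, was next in order. Its RPKM was 461, 586 and 426 in Eff+ against 212, 211 and 219 in Eff- libraries. Every Eff+ library was above every Eff- library, and the Eff- libraries were close together. Rab20 rose 2.29-fold (log2 1.20 ± 0.18, adjusted p = 0.012). Since 25.6% of its exon bases also lie under an antisense gene and the reads were counted without strand, a part of these counts could belong to that gene. The levels of Rab7 and Rab20 did not differ beyond their spread in Eff+ cells (491 ± 84.3 for Rab20).

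Rab9 (ENSMUSG00000079316, chromosome X, 165240249 to 165262863), which serves transport from late endosomes to the Golgi, was at 37.1, 62.2 and 42.9 RPKM in Eff+ and 19.7, 20.2 and 23.4 in Eff- libraries. Rab9 rose 2.25-fold (log2 1.17 ± 0.22, adjusted p = 0.020). Rab32 (ENSMUSG00000019832, chromosome 10, 10420746 to 10434009), a regulator of lysosome-related organelles, was at 181, 322 and 214 RPKM in Eff+ and 103, 114 and 130.5 in Eff- libraries. Rab32 rose 2.07-fold (log2 1.05 ± 0.24, adjusted p = 0.035) with a wide spread in Eff+ (239 ± 73.9), library 2 being the highest. That call was lost with library totals as the only scaling. The melanosome gene Rab38, its close relative, was near the limit of detection, at 0 to 0.286 RPKM in Eff+ and 0.201 to 0.675 in Eff- libraries. Its fold change was not called (log2 -1.60 ± 1.27).

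Rab7b (ENSMUSG00000052688, chromosome 1, 131616433 to 131643177), a paralog of Rab7 that works between endosomes and the trans-Golgi, went the other way. Its RPKM was 58.3, 48.6 and 44.4 in Eff+ and 90.4, 110.5 and 68.7 in Eff- libraries. The groups were separate, and Rab7b fell 1.78-fold (log2 -0.83 ± 0.22, adjusted p = 0.048). The call lay close to the threshold and was lost with relative log expression scaling and when any library other than Eff- library 3 was left out. Within the pair, Rab7b made up 20.6 to 34.8% of the summed Rab7 and Rab7b RPKM in Eff- cells and 8.16 to 10.2% in Eff+ cells. Rab39, linked to phagosome acidification, had 122, 32 and 20 counts in Eff- and 0, 2 and 6 counts in Eff+ libraries. Its log2 fold change of -4.27 ± 1.31 was not called (adjusted p = 0.073). Rab29, a relative of Rab32 that recruits the kinase LRRK2 to lysosomes, was at 23.6, 15.0 and 14.5 RPKM in Eff+ and 36.1, 27.9 and 18.8 in Eff- libraries, which overlap.

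**Figure D2:**
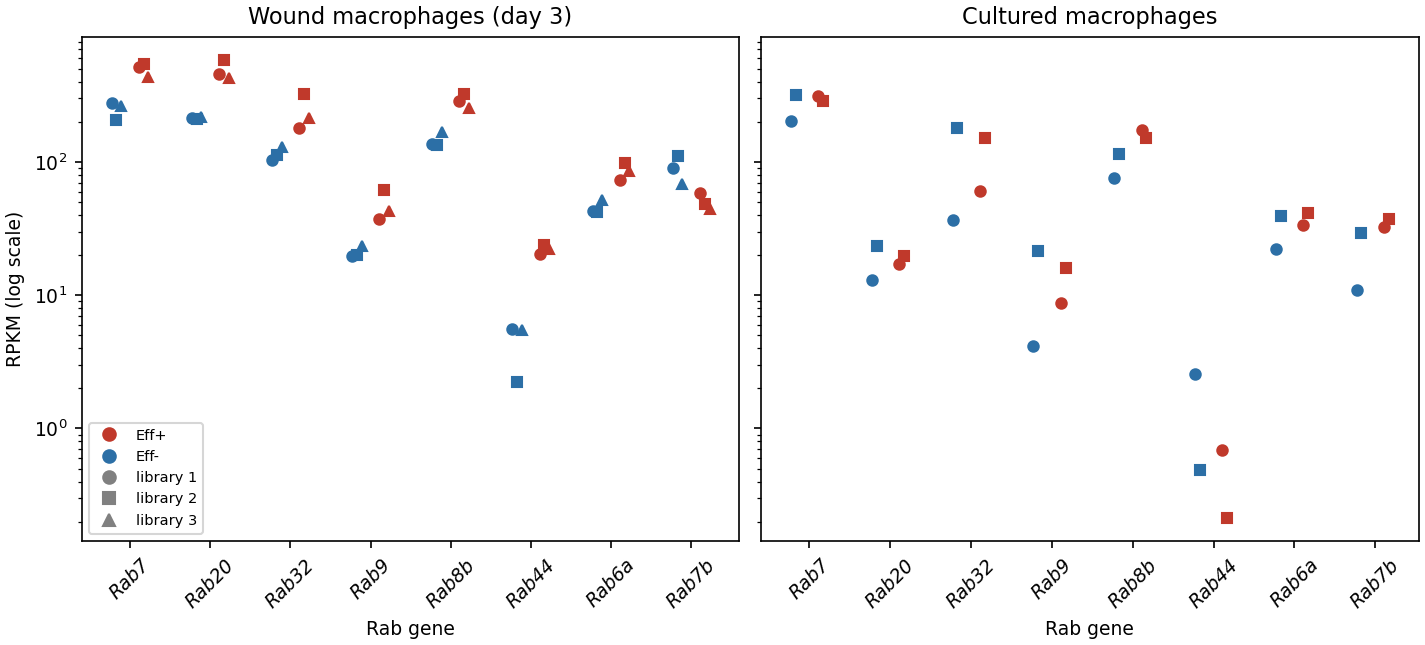
RPKM on a log axis of the 8 Rab genes called in wounds (horizontal axis), in wound libraries (left) and cultured libraries (right), with 1 point per library, red for Eff+ and blue for Eff-, and the symbol giving the library number. In wounds red and blue are separate for each gene, and in culture they overlap for all but Rab8b and Rab7b.

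The stretches upstream of the start sites of Rab20, Rab32 and Rab7 are shown. These genes were called higher in wound Eff+ and were picked for holding a match to at least 1 of 4 short motifs. Both strands were searched, and the genes do not all hold the same motif. The motifs were CACGTG, the E-box core bound by MiT/TFE factors of lysosomal genes, ACGTG, the hypoxia response core, which every CACGTG also contains, TGANTCA, bound by AP-1, and GAGGAAGT, bound by the myeloid factor PU.1. Each run gives the 250 bases before the RefSeq start (GRCm38.p6, a different build from that of the gene positions), 5′ to 3′ on the gene's strand, with the match in capitals.
Rab20, chr8:11478641-11478890, minus strand: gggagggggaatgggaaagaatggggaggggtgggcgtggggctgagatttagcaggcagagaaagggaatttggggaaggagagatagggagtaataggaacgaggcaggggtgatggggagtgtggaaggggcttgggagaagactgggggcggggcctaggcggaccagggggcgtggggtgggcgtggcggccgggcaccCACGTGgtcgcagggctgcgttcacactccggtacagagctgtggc
Rab32, chr10:10558208-10558457, minus strand: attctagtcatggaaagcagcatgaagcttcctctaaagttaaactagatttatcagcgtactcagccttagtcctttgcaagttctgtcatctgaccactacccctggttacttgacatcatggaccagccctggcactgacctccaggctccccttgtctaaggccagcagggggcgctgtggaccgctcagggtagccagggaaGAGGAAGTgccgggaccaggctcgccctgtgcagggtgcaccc
Rab7, chr6:88045271-88045520, minus strand: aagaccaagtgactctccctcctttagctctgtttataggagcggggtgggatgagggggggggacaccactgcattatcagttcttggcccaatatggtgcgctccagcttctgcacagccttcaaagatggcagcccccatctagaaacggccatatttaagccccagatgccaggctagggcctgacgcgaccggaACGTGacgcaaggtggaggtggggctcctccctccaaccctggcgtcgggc
The match begins 46 bases before the start in Rab20 (CACGTG), 43 in Rab32 (GAGGAAGT) and 51 in Rab7 (ACGTG). RefSeq gives Rab7 a second start, whose window holds none of the 4 motifs. The windows of Rab9, Rab8b and Rab6a hold none of the 4 motifs, and the called genes Rab44 and Rab7b had no window. Of 60 Rab windows, from the 48 Rab genes matched by symbol, 8.3% hold CACGTG, 16.7% ACGTG, 3.3% TGANTCA and 3.3% GAGGAAGT. Over all 32851 windows of that length the shares are 6.02, 16.6, 6.75 and 2.44%. In the 42 windows of Rabs that were tested in wounds but not called they are 9.5, 16.7, 2.4 and 2.4%. Matches are letters only, and no binding was measured.

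None of the 6 early endosome Rabs was called, too few genes to set against the 11.2% called over all genes. The groups did not overlap for 3 of the 6, which is 50% against 36.8% of all tested genes. Rab5c, the most abundant of the 3 Rab5 paralogs that act in early endosome fusion, was at 74.2, 75.7 and 75.5 RPKM in Eff+ and 96.4, 96.8 and 86.6 in Eff- libraries (log2 -0.31 ± 0.14, adjusted p = 0.19). Rab5b was at 19.2, 26.2 and 19.9 in Eff+ and 12.5, 14.2 and 17.4 RPKM in Eff- libraries (log2 0.57 ± 0.20, adjusted p = 0.099). Neither passed the test. The groups did not overlap for either gene, and their signs were opposite. Rab5a, the third paralog, was at 8.39 ± 0.793 and 7.96 ± 0.219 RPKM. As shares of the summed Rab5 RPKM, Rab5b took 10.7 to 15.6% in Eff- and 18.7 to 23.9% in Eff+ cells, and Rab5c 77.5 to 82.4% and 68.9 to 73.1%. Rab31, which sorts cargo at early endosomes and the trans-Golgi and was the most abundant early endosome Rab in Eff+ cells, was at 123, 110.0 and 98.9 RPKM in Eff+ and 93.5, 77.5 and 88.3 in Eff- libraries (log2 0.36 ± 0.17, adjusted p = 0.20).

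The recycling Rabs were led by Rab11a, which directs the recycling endosome, at 76.6 ± 5.51 RPKM in Eff+ and 68.6 ± 9.01 in Eff- cells. Its paralog Rab11b was at 22.7 ± 3.20 and 18.6 ± 2.24 RPKM, and Rab14, which links endosomes and the Golgi, at 16.9 ± 2.82 and 20.6 ± 1.15. The groups overlapped for all 3 genes, and their log2 fold changes lay between -0.29 and 0.29. Rab4b, for fast recycling, was at like levels in both groups, at 2.93 ± 0.434 and 2.94 ± 0.457 RPKM, and Rab4a was at 0.477 ± 0.180 and 0.369 ± 0.261. Since 65.0% of the Rab4b exon bases are shared with other genes on the same strand, its level is uncertain. Rab12, a recycling endosome Rab that steers the transferrin receptor to degradation, was the exception in size, at 1.32, 1.15 and 0.816 RPKM in Eff+ and 2.11, 2.41 and 2.59 in Eff- libraries. These ranges are separate, but its log2 fold change of -1.11 ± 0.30 did not pass (adjusted p = 0.053).

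Among the secretory Rabs, Rab8b (ENSMUSG00000036943, chromosome 9, 66750946 to 66826969), for transport to the plasma membrane, was the most abundant. Its RPKM was 287, 326 and 252 in Eff+ and 136, 134 and 168 in Eff- libraries. Rab8b rose 1.98-fold with separate groups (log2 0.99 ± 0.19, adjusted p = 0.022). Its paralog Rab8a was at 118, 93.6 and 80.1 in Eff+ and 75.7, 53.9 and 51.2 RPKM in Eff- libraries, also separate but not called (log2 0.69 ± 0.23, adjusted p = 0.087). Rab44 (ENSMUSG00000064147, chromosome 17, 29333119 to 29367954), an atypically large Rab with EF-hand domains that was studied in granule release, had the largest called difference. Its RPKM was 20.2, 23.9 and 22.2 in Eff+ and 5.59, 2.22 and 5.50 in Eff- libraries. Rab44 rose 4.99-fold, with no overlap (log2 2.32 ± 0.34, adjusted p = 0.011). Rab27a, which docks lysosome-related and secretory granules in neutrophils and other blood cells, was at 26.1, 13.3 and 10.1 RPKM in Eff+ and 8.27, 3.77 and 5.11 in Eff- libraries. Its groups were separate but it missed the threshold (log2 1.53 ± 0.41, adjusted p = 0.051), and DESeq2 and limma-voom called it. The neutrophil markers moved in the same direction, 2.18 to 2.46% of counts against 0.406 to 0.665%, and their part in the Rab44 and Rab27a values was not tested. Rab3d, another granule Rab, was at 5.46 ± 1.58 and 7.87 ± 0.329 RPKM and Rab10, for exocytosis of membrane cargo, at 16.6 ± 1.87 and 17.8 ± 0.640, neither called.

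Among ER and Golgi Rabs, Rab6a (ENSMUSG00000030704, chromosome 7, 100256617 to 100290475), which moves cargo through and out of the Golgi, was the one gene called. It was at 73.6, 99.0 and 85.8 RPKM in Eff+ and 42.8, 42.1 and 51.6 in Eff- libraries. Rab6a rose 1.89-fold (log2 0.92 ± 0.18, adjusted p = 0.022), with 19.0% of its exon bases under an antisense gene, and lost the call with library totals as the only scaling. Rab1a, which carries vesicles from the ER to the Golgi, was more abundant than Rab6a in Eff- cells, at 102 ± 2.83 RPKM against 45.5 ± 5.28. In Eff+ cells Rab1a was at 95.7 ± 3.73 and Rab6a at 86.1 ± 12.7 RPKM, within the spread of Rab6a. The other abundant member, Rab1b, was at 73.7 ± 7.26 and 88.1 ± 6.17 RPKM in Eff+ and Eff- cells and was not called (log2 -0.26 ± 0.15).

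The make-up of the Rab transcripts differed between the wound groups. The late phagosome and lysosome class took 45.3 to 45.9% of the summed Rab RPKM in Eff- libraries and 52.5 to 57.9% in Eff+ libraries. The secretory class took 14.7 to 16.0% and 17.7 to 19.6%. The early endosome class took 13.0 to 13.5% in Eff- and 8.43 to 9.69% in Eff+ libraries, the ER and Golgi class 16.7 to 18.0% and 10.9 to 13.2%, and the recycling class 7.21 to 7.79% and 4.73 to 5.55%. None of these ranges overlap between groups, but a lower share was not a lower level. The summed RPKM was 203 to 219 in Eff- and 210.4 to 236 in Eff+ libraries for the early endosome class, 271 to 280.1 and 289 to 297 for the ER and Golgi class, and 109 to 125 and 112 to 135 for the recycling class. These shares were given no test, as they sum the genes already tested. The summed Rab RPKM was 1509 to 1619 in Eff- and 2188 to 2731 in Eff+ libraries. Without the 8 called genes, which were chosen by this same difference, the sums were 669 to 734 and 665 to 802. Without Rab7 and Rab20 the late class summed to 243 to 275 RPKM in Eff- and 301 to 450 in Eff+ libraries. That remainder still holds the called genes Rab32, Rab9 and Rab7b. Their mean RPKM was 116, 21.1 and 89.8 in Eff- and 239, 47.4 and 50.4 in Eff+ cells. In bulk RNA, a change in transcripts per cell and a change in which cells were sorted cannot be told apart.

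**Figure D3:**
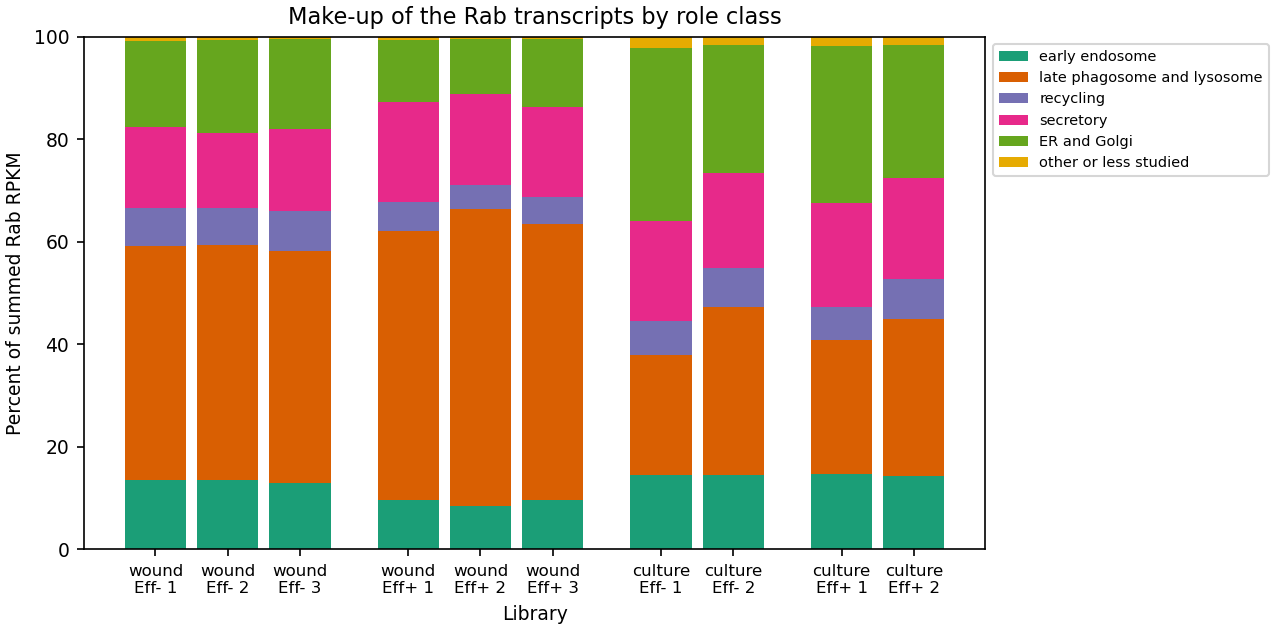
Percent of the summed Rab RPKM (vertical axis) taken by each of 6 role classes, 1 stacked bar for each of the 10 libraries. The late phagosome and lysosome segment takes 52.5 to 57.9% in wound Eff+ libraries against 45.3 to 45.9% in wound Eff- and 23.3 to 32.7% in cultured libraries.

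**Figure D4:**
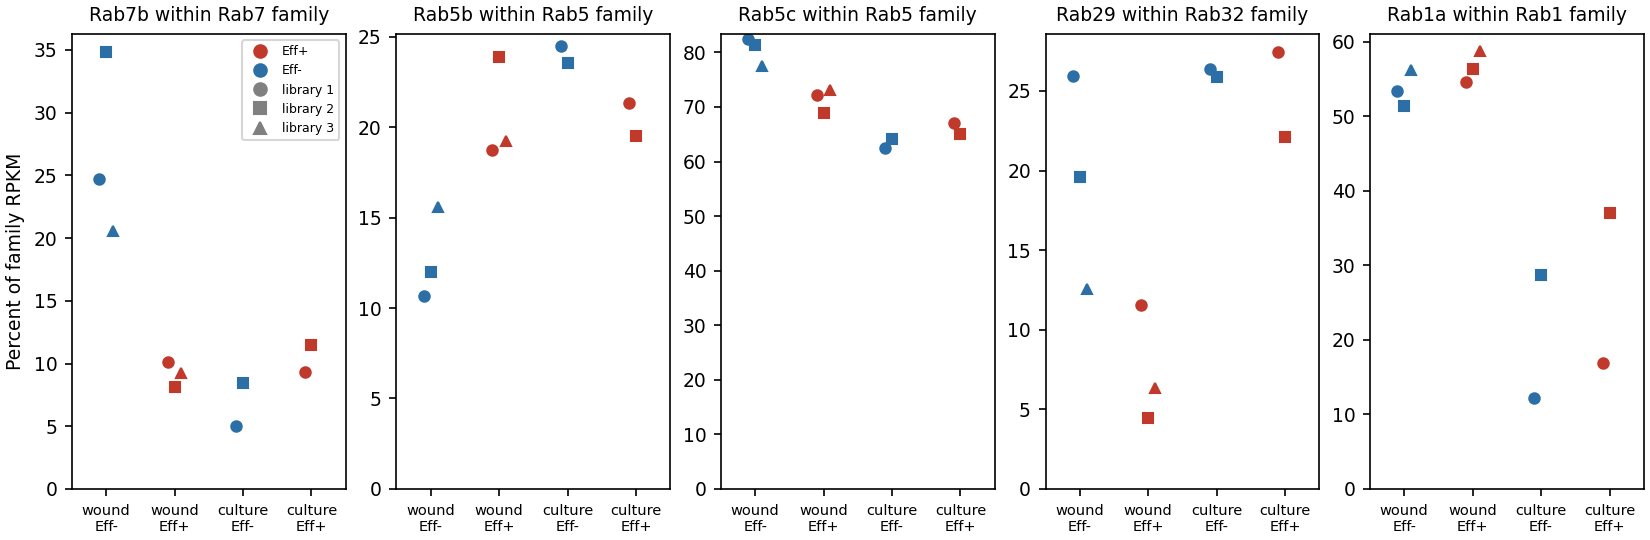
Percent of the summed RPKM of a paralog family taken by 1 member in each library, with 1 panel per member, a linear axis from 0, red for Eff+ and blue for Eff-, and the symbol giving the library number. The Rab7b share is 20.6 to 34.8% in wound Eff- and 8.16 to 10.2% in wound Eff+ libraries, while the Rab5b share is higher and the Rab5c share lower in wound Eff+ libraries, and Rab29 takes 4.44 to 11.6% of the Rab32 family in Eff+ against 12.5 to 26.0% in Eff-.

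The remaining 9 Rab genes had too few counts for the wound test. Rab9b, Rab17 and Rab3c had 0 counts in all 6 wound libraries, below a floor of 3 counts or 0.0523 to 0.0755 CPM (reads scaled to library size only) per library, which covers counting error only. Rab39b, Rab40b, Rab15, Rab25, Rab26 and Rab3b had at most 50 counts in any wound library.

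Rab regulators and effectors form a separate list of 70 genes, of which 62 were tested in wounds. In it 10 rose and 3 fell, which is 21.0% against 11.2% of all tested genes, with a median log2 fold change of -0.16. The list was chosen with earlier results of these data known, and no test of the excess was made. Of 14 tested early endosome regulators and effectors 3 rose and none fell, and none of the 3 Rab5 genes was called. Over the 14 genes, 4 log2 fold changes were positive and 10 negative, with a median of -0.23. Rabgef1, an exchange factor for Rab5, was at 943, 985 and 785 CPM in Eff+ and 383, 339 and 433 in Eff- libraries (log2 1.23 ± 0.18, adjusted p = 0.012). Rin3, another Rab5 family exchange factor, rose (log2 1.23 ± 0.16, adjusted p = 0.0097), as did Eea1, the Rab5 effector that tethers early endosomes, at 118, 183 and 166 against 57.0, 59.0 and 88.7 CPM (log2 1.19 ± 0.24, adjusted p = 0.024). The other 11 tested early endosome regulators and effectors were not called. Of 19 late phagosome regulators and effectors, Tbc1d15, a GTPase-activating protein for Rab7 (2.01-fold, adjusted p = 0.012), and Hps4, a subunit of the exchange factor for Rab32 and Rab38 (log2 0.95 ± 0.22), rose and none fell. That is 10.5% of this list, near the share over all genes. Mon1a and Ccz1, the exchange factor that brings Rab7 to membranes, had log2 fold changes of -0.45 ± 0.26 and -0.50 ± 0.25 and were not called.

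Among the genes for Rab prenylation and membrane extraction, Chm, a Rab escort protein, was at 76.8, 77.0 and 53.8 CPM in Eff+ and 36.4, 33.5 and 33.8 in Eff- libraries. Chm rose with separate groups (log2 1.00 ± 0.18, adjusted p = 0.018). Gdi2, a GDP dissociation inhibitor, had a log2 fold change of -0.56 ± 0.18 that was not called. Of 12 recycling regulators and effectors 3 rose and 2 fell, which is 41.7% against 11.2% of all tested genes. Rab11fip4, a Rab11 effector, was at 19.4, 14.5 and 12.9 CPM in Eff+ against 3.53, 1.67 and 2.02 in Eff- libraries (log2 2.69 ± 0.36, adjusted p = 0.0097). Mical1, an actin-oxidising Rab effector (log2 1.48 ± 0.29), and Dennd1c, of a family of exchange factors for Rab35 (log2 1.07 ± 0.20), were higher too. Dennd1a, of the same family, fell 2.00-fold (adjusted p = 0.024), as did Evi5, a GTPase-activating protein linked to Rab11 (log2 -1.23 ± 0.31). Among 10 tested secretory regulators and effectors Rab3il1, an exchange factor for Rab3 and Rab8, fell (log2 -1.21 ± 0.21, adjusted p = 0.015) and none rose. Rab3il1 was at 95.7, 73.3 and 77.0 CPM in Eff+ and 213, 213 and 145 in Eff- libraries. As for the Rabs, no call remained without Eff+ library 2.

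In cultured macrophages no Rab gene was called, with 0 of 52 tested at an adjusted p under 0.05 and 0 at an unadjusted p under 0.05 by edgeR. The same test called 0% of all 14867 genes. DESeq2 and limma-voom also called 0 Rabs, with 1 and 0 at an unadjusted p under 0.05. On counts simulated for this design the test called 0% of 4-fold changes, so changes of that size and below would go uncalled. The median log2 fold change was -0.04 for the Rabs and -0.05 for all genes. The groups did not overlap for 2 Rabs that were higher and 1 that was lower, 5.77% of those tested against 20.7% of all genes. The libraries numbered 1 and those numbered 2 gave different pictures, with median log2 ratios over the 52 genes of 0.30 and -0.06. Both ratios were above 0 for 11 genes and below 0 for 7, and they were not of the same sign for 34. Without Eff- library 2 the Rab median was 0.59, with 0 called.

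**Figure D5:**
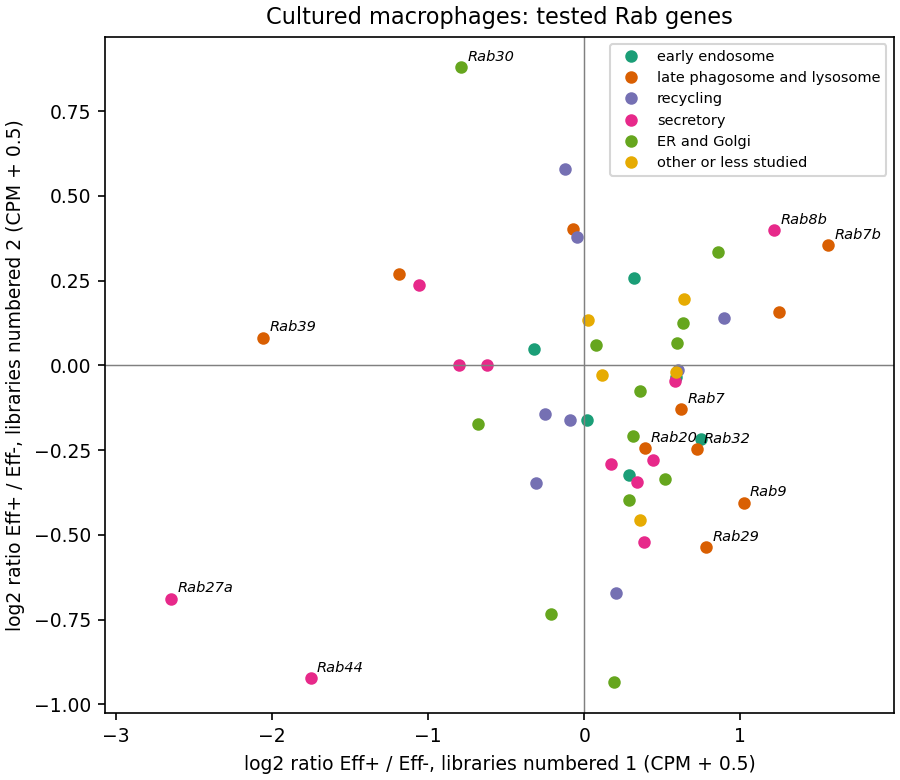
Log2 ratio of culture Eff+ over Eff- for the 52 tested Rab genes, between the libraries numbered 1 (horizontal axis) and those numbered 2 (vertical axis), after adding 0.5 CPM, coloured by role class. Rab8b and Rab7b lie to the upper right and Rab27a and Rab44 to the lower left, while Rab7, Rab9, Rab20 and Rab32 are above 0 in one pair and below 0 in the other.

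Rab7b was at 32.3 and 37.4 RPKM in culture Eff+ and 10.9 and 29.2 in Eff- libraries (log2 0.80 ± 0.60, not called). Rab8b was at 175 and 150.2 in Eff+ and 75.2 and 114 RPKM in Eff- libraries (log2 0.78 ± 0.55, not called). In both genes the ranges are separate, with Eff- library 1 the lowest. Rab35, an endosome recycling Rab, was the single tested gene with both Eff+ values lower, at 15.1 and 17.2 against 18.0 and 19.0 RPKM. The remaining genes of smallest p on the higher side were Rab11a, Rab1a and Rab40c, the last a part of a ubiquitin ligase, with log2 fold changes of 0.42 ± 0.55, 0.50 ± 0.67 and 0.47 ± 0.47. On the lower side Rab27a was at 4.04 and 1.86 RPKM in Eff+ and 26.0 and 3.08 in Eff- libraries (log2 -2.31 ± 1.09), and Rab44 at 0.690 and 0.213 against 2.56 and 0.492 (log2 -1.76 ± 1.08). In both genes Eff- library 1 was far above the other 3 libraries. Among culture libraries it also had the highest marker share for dendritic cells, and for mast cells and basophils (0.00326% against at most 0.000291%). The same held for endothelial, keratinocyte, melanocyte, and T and NK cell markers. The part of those cells in the values was not tested. Rab39 (log2 -2.35, unadjusted p = 0.20), Rab36 (log2 -1.15 ± 1.37) and Rab6b (log2 -0.58 ± 0.61) complete the lower side, the first again highest in Eff- library 1, with 86 counts against 4 to 14 in the other 3. Of the 70 regulators and effectors 65 were tested in culture and 0 were called, with 0 at an unadjusted p under 0.05 (edgeR). With the replicate block 0 were called and 4 had an unadjusted p under 0.05.

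In culture the direction of the 4 late class Rabs that rose in wounds depended on the library number. Each was higher in Eff+ among the libraries numbered 1 and lower among those numbered 2. Rab7 was at 314 and 289 RPKM in Eff+ and 204 and 316 in Eff- libraries, Rab9 at 8.69 and 16.1 against 4.14 and 21.5, and Rab32 at 61.0 and 152 against 36.9 and 181. The groups overlapped for each of these, with library 1 low and library 2 high on both sides for Rab9 and Rab32. Rab7 also led the order of levels in culture, at 302 ± 18.2 RPKM in Eff+ and 260.1 ± 78.7 in Eff- (SD, n = 2), followed by Rab1b at 268 ± 92.9 and 251 ± 25.1, a difference within their spread. Rab20 ranked with Rab7 in wounds but was at 17.1 and 19.6 RPKM in culture Eff+ and 13.0 and 23.2 in Eff- libraries. The models were scaled separately and come from different tissues, so these levels were not tested against each other.

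The last comparison asked whether the Eff+ to Eff- difference itself was different in wounds and in culture. Of 53 Rabs tested in a fit over all 10 libraries, 0 were called (0% of the 20270 genes tested), and 4 had an unadjusted p under 0.05. The smallest adjusted p of a Rab was 0.18. Rab44 differed by 4.09 ± 0.95 on the log2 scale (unadjusted p = 0.0013), being higher in Eff+ in wounds and lower in culture. Rab27a differed by 3.85 ± 1.08 (unadjusted p = 0.0044), with the same directions. Rab7b differed by -1.60 ± 0.59 (unadjusted p = 0.019), lower in Eff+ in wounds and higher in culture, and Rab20 by 1.21 ± 0.47 (unadjusted p = 0.026). DESeq2 called 3 Rabs for this difference, Rab44, Rab27a and Rab20, while limma-voom called 0, with 4 at an unadjusted p under 0.05. Of all genes DESeq2 called 3.93% and limma-voom 0%. With the replicate number as a block, Rab44 and Rab27a were called, as were 2.18% of all genes.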

How the data were processed

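Polyadenylated RNA was sequenced from 6 wound and 4 culture libraries, grouped by their titles. The deposited values are raw read counts for each gene. The wound table was made by featureCounts 1.6.0 without a strand option, on the Ensembl release 106 annotation of GRCm39, per the file headers. The submitters' processing notes also name Trimmomatic 0.39. For the aligner and the counting of the culture reads, nothing is given in the sources used here. In that annotation 20 Rabs share exon bases with a neighbour, whose reads could not be separated. Symbols were found for 52081 of 55414 identifiers, which hold 99.91% of counts. The culture table has 4 more columns that no label describes, left out here.

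Wound and culture counts were fitted separately in edgeR 4.0.16 (R 4.3.3), with TMM scaling, filterByExpr, the quasi-likelihood test over all genes and Benjamini-Hochberg adjustment, and calls at an adjusted p under 0.05. One more fit, over all 10 libraries, tested the difference between models. An SE is the log2 fold change over the square root of F. RPKM is the TMM-scaled CPM per kilobase of the deposited gene length. The alternatives were 3 other scalings, DESeq2 1.42.0, limma-voom (limma 3.58.1), other filters, a replicate block, marker genes of other cells left out, and each library left out. The procedure was tested on simulated data with 200 altered genes. The wound design found 19% of those altered 2-fold and 88% of those altered 4-fold, and called 3 unaltered genes out of 14908. The culture design found 0% of either and called 0 out of 14867. Replicates differed beyond sampling noise in every pair (chi-square per degree of freedom 78.9 to 460). Whether they are separate animals or cultures is not labelled, so the p-values reflect the spread among these samples alone, and that spread could be technical.

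Members, role classes and gene lists were chosen with earlier results of these data known. Named were the Rabs called in wounds, 19 fixed Rabs, the 5 of smallest p in each direction in culture, the 3 of smallest p for the difference between models, and up to 4 called genes per regulator list and direction. Rab12, Rab29, Rab35, Rab1b, Mon1a, Ccz1 and Gdi2, and the untested genes, were named after their values were seen. A gene that the rule names is not reported here. Sequences are from RefSeq (GRCm38.p6).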

Additional observations from a re-analysis of the deposited data

Results flagged for a closer look

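Rab7b differed in direction between the models. In wounds its RPKM was 44.4 to 58.3 in Eff+ and 68.7 to 110.5 in Eff- libraries, and in culture 32.3 to 37.4 in Eff+ and 10.9 to 29.2 in Eff- libraries. Every Eff+ library was thus below every Eff- library in one model and above in the other. The test of the difference gave -1.60 ± 0.59 on the log2 scale, with an unadjusted p of 0.019 and an adjusted p of 0.36 (edgeR over all genes), so it was not called. The lowest culture value, 10.9 in Eff- library 1, came from the library with the lowest macrophage marker share, 0.238% of counts.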

How the results depend on the processing

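None of the 8 Rab genes called in wounds reversed its sign under any alternative wound run. For the wound calls (7 Rabs higher, 1 lower), leaving out 1 library gave 0 to 7 higher and 0 to 1 lower, and leaving out both libraries numbered 2 gave 0 and 0 with the 8 signs kept. Without Eff+ library 2 the count was 0 of all genes, and the cause was not tested. Lower calls were 0 with relative log expression scaling, 10 with library totals only, 3 with DESeq2, and 2 with limma-voom, a filter of at least 1 CPM or the replicate block. With library totals only, the wound medians were -0.14 (early endosome), -0.32 (ER and Golgi), -0.43 (less studied), -0.28 (recycling), 0.44 (secretory) and -0.21 (all Rabs), shifted by the scaling itself. The median of the less studied class in wounds was 0.50 with limma-voom, 0.53 with no filter, 0.32 with at least 1 CPM and 0.55 with the replicate block, and -0.13 to 0.42 without 1 library. That of the ER and Golgi class was -0.15 with at least 1 CPM and -0.079 to 0.13 without 1 library. In culture the recycling median was -0.094 with totals only, 0.10 with no filter and -0.23 with at least 1 CPM, and the less studied median was 0.32 with no filter. Without 1 culture library the medians were -0.090 to 0.72 (early endosome), -0.016 to 0.60 (ER and Golgi), -0.51 to 1.22 (late phagosome and lysosome), 0.077 to 0.60 (less studied), -0.052 to 0.19 (recycling), -0.12 to 0.38 (secretory) and -0.043 to 0.59 (all Rabs), each highest value but that of recycling being without Eff- library 2. For the difference between models, higher calls were 3 with DESeq2, 2 with no filter and 2 with the replicate block. Of all genes, these runs called 3.93, 1.09 and 2.18%. Leaving out any 1 wound library gave 0 calls. Leaving out 1 culture library leaves 1 library in its group, so calls from those runs are not given. The numbers pair no samples by the labels. Deviations of same-numbered libraries correlated by 0.25, -0.01 and 0.13 in wounds and by 0.74 in culture. With 2 libraries per group both culture pairs must give the same value, so the second adds nothing. In culture the replicate block called 0 Rabs, with 2 at an unadjusted p under 0.05 (edgeR). With the block 9 Rabs were higher in wounds, all 8 calls kept. In wounds 9 Rabs had too few counts to be tested. With 2 libraries per group the culture test found 0% of simulated 4-fold changes.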
